A study of Mus musculus with 33 samples.

Results

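Cholesterol synthesis genes were examined as 8 members taken by symbol: Hmgcs1, Idi1, Fdps, Fdft1, Sqle, Lss, Cyp51 and Insig1. All 8 have a record among the 37926 records of each RNA table, and 7 have a row among the 36194 genes of the iCLIP files. Hmgcs1 has no iCLIP row under that name or its synonym, so its iCLIP signal is not analysed here. The rule takes them by symbol and uses no measured value, though earlier results of these data were known when they were picked.

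The RNA came from primary motoneurons of CD-1 mice cultured in microfluidic chambers that keep the axonal compartment apart from the cell bodies and dendrites. There were 4 axonal and 4 somatodendritic control libraries, titled GFP, 3 of each compartment with hnRNP R knockdown and 4 of each labelled 7SK knockdown. hnRNP R is an RNA-binding protein, and 7SK is a nuclear noncoding RNA that holds the transcription elongation factor P-TEFb inactive. The sources used here do not give how the knockdowns were made, how old the animals were or whether libraries came from separate cultures. The 11 iCLIP libraries mark where a protein was crosslinked to RNA, counted as cDNAs per gene. Of these, 2 came from motoneurons and 2 from NSC34 cells with antibody 1 against hnRNP R, and 1 came from NSC34 cells with IgG. NSC34 is a mouse motoneuron-like hybrid cell line. A further 6 came from nuclear and cytoplasmic fractions, 1 pair from motoneurons and 2 pairs from NSC34 cells with antibodies 1 and 2.

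Cells make cholesterol from acetyl-CoA through mevalonate, isoprenoid diphosphates, squalene and lanosterol. The genes of the pathway share a transcriptional switch, SREBP2, which is released from the endoplasmic reticulum when membrane sterols are low and binds sterol regulatory elements in their promoters. INSIG proteins hold the SREBP escort SCAP in the endoplasmic reticulum when sterols are plentiful. Neurons need cholesterol for growing axons and synapses, and can take it up from glia on apolipoprotein E particles as well as make it.

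Promoters were read because these genes are known for a common sterol switch. RefSeq windows on GRCm38.p6 were at hand for Hmgcs1, Idi1, Lss, Insig1 and Cyp51, that is 5 of 8 members. Each window has its own RefSeq start, which need not be the start of the gene record given below. The 250 bases before the start were searched on both strands for TCACNCCAC (the sterol regulatory element consensus), CCAAT (the NF-Y box) and GGGCGG (the Sp1 box). TCACNCCAC was found in 346 of 32851 windows of that length (1.05%) and, among the members, in 1, that of Hmgcs1. CCAAT was in 33.8% of all windows and GGGCGG in 32.7%, and both were in all 5 member windows. No 2 of these matches overlap in the windows printed. Windows of 3 members are shown: Hmgcs1 for the match to the sterol element, and Lss and Insig1 because their values were below control in all 4 RNA comparisons. Capitals mark every match of a motif on either strand.
Hmgcs1, chr13:119690101-119690350, plus strand: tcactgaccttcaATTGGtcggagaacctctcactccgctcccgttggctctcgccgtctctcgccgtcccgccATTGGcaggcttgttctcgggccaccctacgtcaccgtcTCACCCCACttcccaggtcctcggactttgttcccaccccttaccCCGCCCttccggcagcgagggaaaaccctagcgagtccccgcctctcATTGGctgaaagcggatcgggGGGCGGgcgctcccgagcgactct
Lss, chr10:76531355-76531604, plus strand: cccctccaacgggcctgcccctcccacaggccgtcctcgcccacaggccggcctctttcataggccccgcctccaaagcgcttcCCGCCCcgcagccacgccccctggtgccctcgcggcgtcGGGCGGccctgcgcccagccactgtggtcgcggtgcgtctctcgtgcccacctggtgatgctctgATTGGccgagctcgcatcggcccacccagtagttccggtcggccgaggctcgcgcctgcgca
Insig1, chr5:28071162-28071411, plus strand: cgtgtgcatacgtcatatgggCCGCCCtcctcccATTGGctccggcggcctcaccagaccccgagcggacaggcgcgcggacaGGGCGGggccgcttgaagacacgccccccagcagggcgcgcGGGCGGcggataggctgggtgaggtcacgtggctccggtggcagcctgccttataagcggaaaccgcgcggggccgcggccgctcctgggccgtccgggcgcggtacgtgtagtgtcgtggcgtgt
The sterol element match of Hmgcs1 lay on the plus strand, from 137 to 129 bases before the start. A match is a description of letters and was not tied to binding by any file used here.

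The RNA values are FPKM, fragments scaled to transcript length and library depth, so levels of different genes can be set beside each other. Each table holds 1 value per group, which leaves no spread over libraries, and p and q are those of the authors' deposited table. A gene was called at q under 0.05 with a completed test. The control values of both knockdown tables of a compartment are 1 set times a constant (a median ratio of 1.03 in axons and 0.920 on the somatodendritic side). The knockdown comparisons of a compartment therefore share their controls, and their directions are not independent.

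Several values bear on the labels. Hnrnpr, the gene of hnRNP R, had 10.8 FPKM with its knockdown against 27.2 in somatodendritic control (q = 0.310 by the authors' deposited table) and 3.98 against 9.93 in axons, without a test. Rn7sk, the gene of 7SK, was lower in the somatodendritic group labelled 7SK knockdown, 6370 against 9104 FPKM (q = 0.0041 by the authors' deposited table). In the axonal group of that label it was 3508 against 2708 FPKM (q = 0.594), opposite to the label. Of 10 motoneuron markers, 2 in axons and 3 on the somatodendritic side reached 1 FPKM in either group, and Chat, Isl2 and Mnx1 were listed at 0 in every group, while all 12 astrocyte and radial glia markers reached it. In somatodendritic hnRNP R knockdown Rn7sk rose to 13493 from 9892 FPKM (q = 0.00865 in the authors' deposited table). In these bulk samples fewer cells of a type and less RNA per cell cannot be told apart.

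In control motoneurons Hmgcs1 and Sqle were the most abundant members, Idi1 was the least, and Insig1 alone was not lower in axons. Hmgcs1 (chr13:119690462-119708086, GRCm38), which makes the HMG-CoA that feeds the pathway, had 84.5 FPKM on the somatodendritic side and 55.8 in axons in the hnRNP R tables. Sqle (chr15:59315077-59331192), the epoxidase that opens the sterol part of the pathway, had 77.5 and 52.6 FPKM. Fdft1 (chr14:63122462-63177793), squalene synthase, had 62.0 and 23.0 FPKM. Fdft1 lay above Fdps on the somatodendritic side and below it in axons.

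The remaining members formed a lower band. Fdps (chr3:89093592-89101967), which makes farnesyl diphosphate, had 32.1 FPKM in the somatodendritic and 25.8 in the axonal control. Cyp51 (chr5:4081145-4104746), which demethylates lanosterol, had 30.5 and 20.3 FPKM. Lss (chr10:76531588-76562226), which cyclises squalene epoxide to lanosterol, had 26.6 and 18.1 FPKM. These neighbours in the order have no measured spread between them, so their order is a description only. Insig1 (chr5:28071363-28078662) had 16.1 and 16.9 FPKM, and Idi1 (chr13:8885501-8892451), the isomerase of the isoprenoid units, had 3.98 and 1.43 FPKM.

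The axonal level was between 35.9% (Idi1) and 105% (Insig1) of the somatodendritic one. Fdft1 stood at 37.2%, Fdps at 80.4%, and Hmgcs1, Sqle, Lss and Cyp51 at 66.0%, 67.8%, 67.9% and 66.5%. The median log2 ratio of the 8 members was -0.57, beside -0.71 over the 5437 records with at least 10 FPKM in either compartment, with 0.1 FPKM added to both values. In axons 7 of 8 were lower, but after centring on that median only Fdft1 and Idi1 were, and the members' median became 0.14. The compartments were normalized in separate tables and no test was made.

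**Figure D1:**
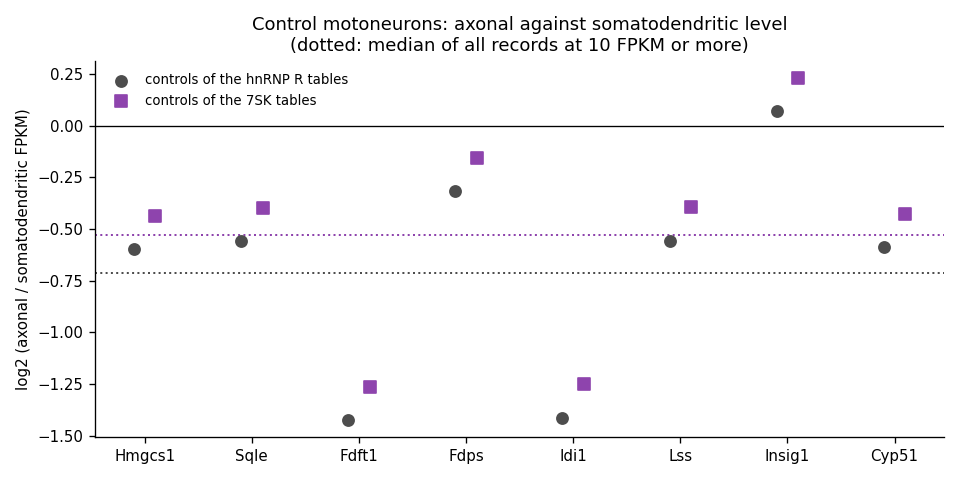
Log2 ratio of the axonal to the somatodendritic control FPKM of each member (vertical axis, 0.1 FPKM added), from the controls of the hnRNP R tables (circles) and the 7SK tables (squares), with dotted lines at the median of all records of 10 FPKM or more. Fdft1 and Idi1 lie below the dotted lines at -1.42 for both in the hnRNP R tables, and Insig1 is the only member above 0.

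On the somatodendritic side with hnRNP R knockdown Lss, Fdps and Sqle had lower values than control, but none was called. Lss had 12.5 against 26.6 FPKM in control, 46.9% of it. In the authors' deposited table this gave a log2 ratio of -1.09, p = 0.00985 and q = 0.239. Fdps had 19.9 against 32.1 FPKM (log2 -0.69, p = 0.0239, q = 0.311 in the authors' deposited table), and Sqle 61.7 against 77.5 FPKM (log2 -0.33, p = 0.0203, q = 0.301). These 3 were the members with an unadjusted p under 0.05, all lower, and 6.54% of all tested genes were lower at that p.

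The other members of that comparison were closer to control. Cyp51 had 24.6 against 30.5 FPKM (q = 0.620) and Fdft1 57.5 against 62.0 (q = 0.885), whereas Hmgcs1 had 87.8 against 84.5 (q = 0.897), all in the authors' deposited table. Hmgcs1 was thus at 104% of control and Lss at 46.9%. Insig1 had 14.8 against 16.1 FPKM and Idi1 5.19 against 3.98, and neither was tested. Both lie under the lowest level at which any gene of the table was tested, 20.9 FPKM in the higher group. In all, 6 members were tested, 5 of them lower, and 0 were called, where 27 of 2768 tested genes (0.975%) were called. The median log2 ratio was -0.22 over the 8 members and 0.02 over the tested genes.

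In the somatodendritic group labelled 7SK knockdown, set against the same control libraries, 7 of 8 members had lower values than control and none was called. Sqle had 55.6 against 71.4 FPKM in control, and in the authors' deposited table log2 was -0.36, p = 0.0175 and q = 0.193. Sqle alone had an unadjusted p under 0.05, beside 7.01% of all tested genes lower at that p. Lss had 12.1 against 24.5 FPKM, but it had no test. Fdps had 20.8 against 29.6 FPKM (q = 0.462), Cyp51 21.5 against 28.1 (q = 0.483) and Fdft1 49.6 against 57.1 (q = 0.781) in the authors' deposited table. Hmgcs1 was at 77.8 FPKM in both groups (q = 0.992). Insig1 had 12.9 against 14.9 FPKM and Idi1 3.18 against 3.66, without a test. Of 5 members tested, 4 were lower and 0 were called, where 49 of 1954 tested genes (2.51%) were called. The median log2 ratio was -0.28 over the 8 members and 0.06 over the tested genes.

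**Figure D2:**
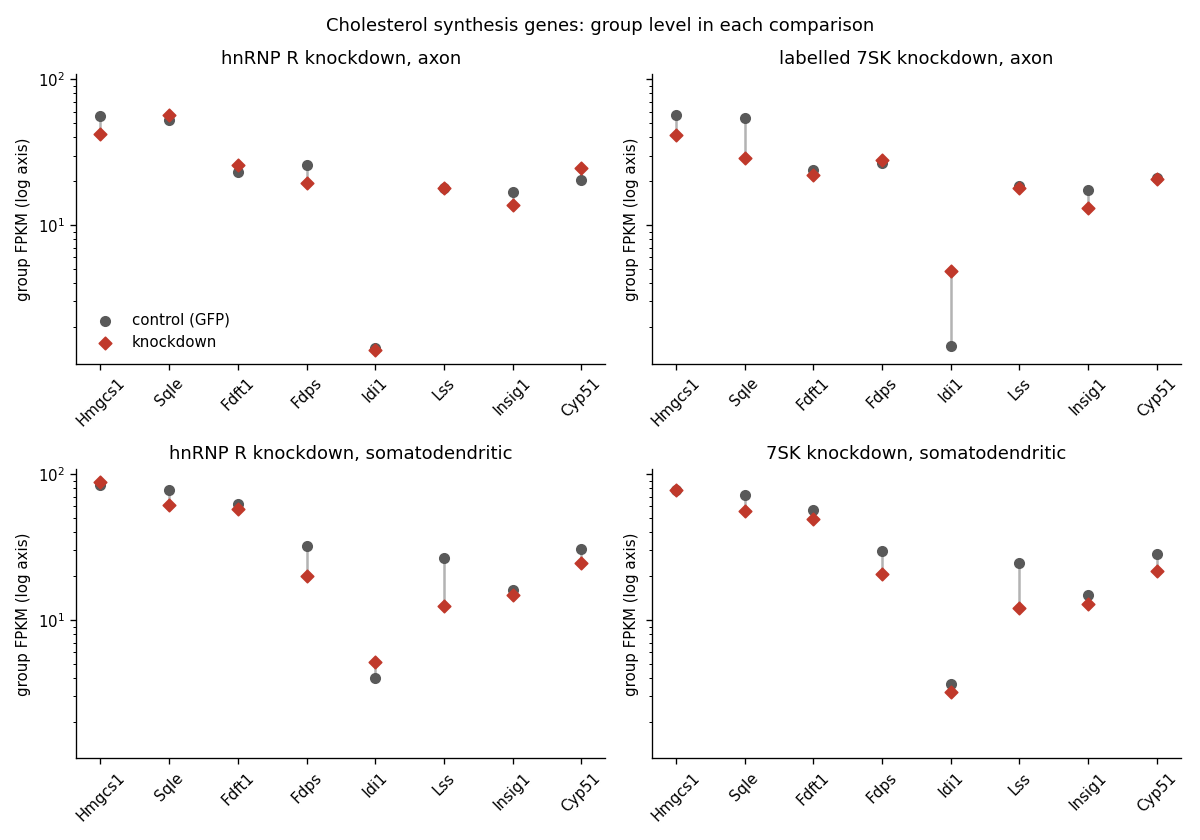
Group FPKM of each member (log vertical axis) in control (grey circles) and knockdown (red diamonds), 1 panel per comparison, with 1 deposited value per group and no error. Lss is separated most on the somatodendritic side (26.6 to 12.5 and 24.5 to 12.1 FPKM), and in the axons of the group labelled 7SK knockdown Idi1 (1.48 to 4.87 FPKM, not tested) and then Sqle (54.1 to 29.0 FPKM).

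In axons with hnRNP R knockdown no member was called, and none had an unadjusted p under 0.05. Hmgcs1 had 41.9 against 55.8 FPKM (q = 0.791) and Fdps 19.3 against 25.8 (q = 0.824) in the authors' deposited table. Sqle had 56.5 against 52.6 FPKM (q = 0.945), Fdft1 25.7 against 23.0 (q = 0.962) and Cyp51 24.8 against 20.3 (q = 0.879). Lss was at 17.9 against 18.1 FPKM, Insig1 at 13.8 against 16.9 and Idi1 at 1.38 against 1.43, all 3 without a test. The axonal level of Lss was thus 99.2% of control with hnRNP R knockdown, beside 46.9% in the cell bodies of that knockdown. Whether these ratios differ was not tested. Of 5 members tested, 2 were lower and 0 were called, where 2 of 1749 tested genes (0.114%) were called. The smaller of those 2 had a log2 ratio of 1.98 in size, and the largest among the tested members was -0.42. The median log2 ratio was -0.03 over the 8 members and 0.14 over the tested genes. The largest locus, Gm26924, held 46.7% of the summed FPKM in control and 47.5% with knockdown. With both groups rescaled to the same sum without that locus, Sqle, Fdft1 and Cyp51 turned lower than control. This rescaling moved every log2 ratio by -0.33. The shares of the locus are close in this comparison, so most of that move comes from the summed FPKM of the groups and not from the locus.

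In axons of the group labelled 7SK knockdown Sqle had the largest difference of the tested members. It had 29.0 against 54.1 FPKM in control, with log2 -0.90, p = 0.0192 and q = 0.166 in the authors' deposited table. At that p, 4.56% of all tested genes were lower. Hmgcs1 had 41.5 against 57.4 FPKM (log2 -0.47, q = 0.500 in the authors' deposited table). The other 6 had no test. Fdft1 was at 22.1 against 23.7 FPKM, Fdps at 27.9 against 26.5, Lss at 17.8 against 18.6, Cyp51 at 20.8 against 20.9 and Insig1 at 13.0 against 17.5. Idi1 was at 4.87 against 1.48 FPKM, a level at which no gene of the table was tested. Of 2 members tested 0 were called, where 31 of 1009 tested genes (3.07%) were called, and the smallest called log2 ratio was 1.36 in size. The median log2 ratio was -0.08 over the 8 members and 0.23 over the tested genes.

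Across the 4 comparisons Lss and Insig1 had lower values than control each time, Sqle, Fdft1, Fdps and Cyp51 3 times, and Hmgcs1 and Idi1 2 times. Insig1 was tested in 0 of the 4 and Lss in 1, and Lss in axons with hnRNP R knockdown was at 99.2% of control. These directions come from values without a spread. The range of log2 ratios was narrowest for Insig1 (-0.42 to -0.12) and widest for Idi1 (-0.20 to 1.72), the member with the lowest level. Lss ranged from -1.09 to -0.01, with its lowest 2 values both on the somatodendritic side. Under other scalings of the tables the sign turned for Sqle, Fdft1 and Cyp51 in axons with hnRNP R knockdown, for Fdps in the axons labelled 7SK knockdown for Hmgcs1 in the cell bodies of that label, and for no member in the cell bodies with hnRNP R knockdown.

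**Figure D3:**
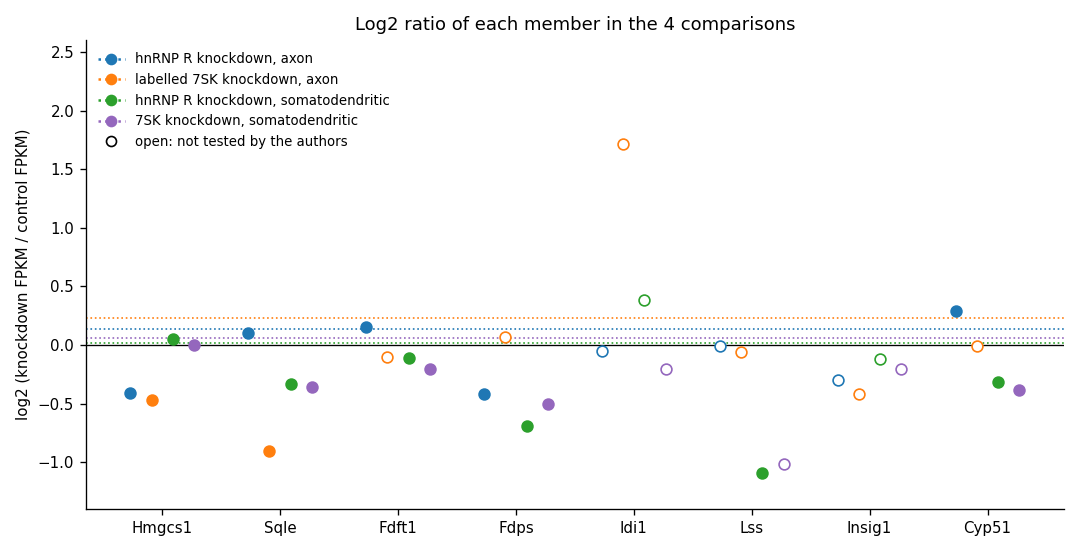
Log2 ratio of knockdown to control FPKM (vertical axis) for each member in the 4 comparisons, filled where the authors tested the gene and open where they did not, with dotted lines at the median of all tested genes of each comparison. Lss lies at -1.09 and -1.02 on the somatodendritic side and near 0 in axons, and the Idi1 value of 1.72 comes from 1.48 and 4.87 FPKM.

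Cell type markers are given as summed levels, knockdown against control, with no test of a sum. A sum can differ in direction from its genes. With somatodendritic hnRNP R knockdown the fibroblast sum was lower, while of 7 such markers at 1 FPKM or more 4 were higher and 3 lower. On the somatodendritic side with hnRNP R knockdown the summed level of 12 astrocyte and radial glia markers was 647 against 627 FPKM and that of 12 fibroblast markers 151 against 172. For the somatodendritic group labelled 7SK knockdown these sums were 647 against 577 and 239 against 158 FPKM. In axons with hnRNP R knockdown they were 779 against 765 and 1154 against 1038 FPKM. In axons labelled 7SK knockdown they were 606 against 785 and 566 against 1069 FPKM, and the 12 microglia markers summed to 142 against 11.4. The motoneuron markers summed to 8.23 against 13.3 and 5.70 against 12.3 FPKM in the cell bodies, and 1.77 against 5.44 and 4.20 against 5.59 in axons, hnRNP R knockdown first. The microglia markers in the other 3 comparisons summed to 29.6 against 11.2 (axons, hnRNP R), 65.5 against 58.5 (cell bodies, hnRNP R) and 87.3 against 53.9 (cell bodies, 7SK). Oligodendrocyte and Schwann cell markers summed to 125 against 89.5 and 116 against 82.3 FPKM in the cell bodies, and 62.4 against 32.1 and 54.1 against 32.9 in axons, hnRNP R knockdown first. Markers of other neurons in that order summed to 199.5 against 188, 133 against 173, 63.3 against 44.0 and 61.1 against 45.3 FPKM. In the cell bodies labelled 7SK knockdown 8 of the 9 other-neuron markers at 1 FPKM or more were lower. By the authors' q, axons of that label had 1 of 7 tested astrocyte and radial glia markers and 1 of 4 fibroblast markers called lower. In the cell bodies of that label 1 of 6 and 2 of 3 were called higher. With somatodendritic hnRNP R knockdown 1 of 4 tested other-neuron markers was called lower, though their sum was higher. No other marker was called. The part of any of these markers in the members' values was not tested.

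Of 14 other enzymes of the pathway 0 were called in each comparison. On the somatodendritic side with hnRNP R knockdown 7 were tested and 5 were lower. By the authors' deposited table Nsdhl, which acts on methylated sterols after lanosterol, had 32.8 against 44.8 FPKM (log2 -0.45, p = 0.0207, q = 0.301). Dhcr7, a sterol reductase late in the pathway, had 17.0 against 20.0 FPKM, without a test. In the somatodendritic group labelled 7SK knockdown 4 of 7 tested enzymes were lower. In the authors' deposited table Msmo1 (listed as Sc4mol) had 63.1 against 85.1 FPKM there (p = 0.0940, q = 0.424) and Nsdhl 32.9 against 41.2 (q = 0.474). Dhcr7 had 20.5 against 18.4 FPKM, without a test.

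In axons 5 of the other enzymes were tested with hnRNP R knockdown and 2 in the group labelled 7SK knockdown. By the authors' deposited table Msmo1 had 87.0 against 63.4 FPKM with hnRNP R knockdown (q = 0.844) and 58.4 against 65.3 in the group labelled 7SK knockdown (q = 0.905). Tm7sf2, a sterol reductase, shares its record with 2 neighbouring genes, and the record had 45.7 against 34.4 FPKM with hnRNP R knockdown (q = 0.752). Dhcr7 had 14.3 against 15.2 and 21.1 against 15.7 FPKM, neither tested.

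Of 15 regulators of the SREBP switch 0 were called in any comparison, but most had no test. With hnRNP R knockdown 4 were tested in axons and 4 in cell bodies. In the groups labelled 7SK knockdown 3 were tested in axons and 4 in cell bodies. Srebf2, which encodes SREBP2, had 46.7 against 48.1 FPKM with hnRNP R knockdown (q = 0.934) and 46.2 against 44.2 with 7SK knockdown (q = 0.857) in the cell bodies, in the authors' deposited table. In axons it had 25.8 against 23.8 FPKM (q = 0.941) and 19.5 against 24.5, with no test for the latter. In the authors' deposited table Insig2, a paralogue of Insig1, had 31.5 against 19.4 FPKM (p = 0.0844, q = 0.481) and 27.5 against 17.8 (q = 0.474) in the cell bodies. In the authors' deposited table Srebf1 had 12.1 against 39.7 FPKM in axons labelled 7SK knockdown (p = 0.0424, q = 0.245) and 23.8 against 38.6 in axons with hnRNP R knockdown (q = 0.845). Scap had 24.9 against 37.8 FPKM in the axons labelled 7SK knockdown (q = 0.587).

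Of 21 genes of cholesterol uptake and transport, Apoe was called in 2 comparisons and no other gene was called. Only 2 were tested in each axonal comparison and 3 in each comparison of cell bodies. Of all tested genes 0.975% were called in cell bodies with hnRNP R knockdown and 3.07% in axons labelled 7SK knockdown. Apoe, the glial carrier of cholesterol, rose from 408 to 575 FPKM in the cell bodies with hnRNP R knockdown (log2 0.50, q = 0.0373 in the authors' deposited table). It rose from 63.1 to 324 FPKM in axons labelled 7SK knockdown (log2 2.36, q = 0.0036), with the marker sums given above. In the other 2 comparisons it had 183 against 61.6 FPKM (axons with hnRNP R knockdown, q = 0.221) and 462 against 375 (cell bodies labelled 7SK knockdown, q = 0.304). Lrp1 had 46.0 against 78.7 FPKM (q = 0.251) and Lrp8 19.0 against 30.5 (q = 0.255) in the cell bodies labelled 7SK knockdown. In axons with hnRNP R knockdown Lrp1 had 35.2 against 53.1 FPKM (q = 0.791).

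Fatty acid synthesis, which the related factor SREBP1 drives, gave 0 calls among 16 genes in each comparison, but most had no test. With hnRNP R knockdown 5 were tested in axons and 6 in cell bodies. In the groups labelled 7SK knockdown 4 were tested in axons and 5 in cell bodies. Fads2, a desaturase, had 67.6 against 48.8 FPKM in cell bodies with hnRNP R knockdown (p = 0.00910, q = 0.235) and 18.1 against 41.1 in axons labelled 7SK knockdown (p = 0.0220, q = 0.175), in the authors' deposited table. Scd2, the main neural desaturase of stearate, had 153 against 185 FPKM (q = 0.588) and 143 against 171 (q = 0.594) in the cell bodies, and 76.0 against 88.4 in axons with hnRNP R knockdown (q = 0.906). Fads1 had 34.2 against 31.2 FPKM in the cell bodies labelled 7SK knockdown (q = 0.781). Fasn had 55.2 against 95.5 FPKM in axons labelled 7SK knockdown (q = 0.587), and Fads2 43.9 against 39.99 in axons with hnRNP R knockdown (q = 0.934). Of the 14 genes of the isoprenoid branch, which starts from the product of Fdps, 1 was tested in all 4 comparisons together. This was Fntb, with 18.6 against 26.4 FPKM in cell bodies with hnRNP R knockdown (q = 0.651).

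The log2 ratios of 5 other genes were nearest to the members' median ratios over the 4 comparisons, among 2254 genes with at least 10 FPKM in all 8 group values. In order they were Plxna1, Rtn2, Tubb5, Tcf25 and Rab6a, with Euclidean distances of 0.06, 0.09, 0.11, 0.15 and 0.16 on the log2 scale. Plxna1 had log2 ratios of -0.07 and -0.05 in axons and -0.22 and -0.31 in cell bodies, hnRNP R knockdown first. The members' medians in that order were -0.03, -0.08, -0.22 and -0.28. The ratios within a compartment share a control, and nothing is read from the likeness.

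In the iCLIP files the 7 members held between 48 and 231 cDNAs in the unfractionated hnRNP R libraries, whose totals ran from 99762 to 456721 cDNAs. As CPM, the count scaled to a common library total, this was 506 and 481 in NSC34 cells and 295 and 335 in motoneurons (replicates 1 and 2). The IgG library, with 36280 cDNAs, held 13 on the members, or 358 CPM (95% Poisson interval 191 to 613). That interval covers all 4 hnRNP R values, and it and the intervals below cover counting error only. That library is taken as IgG from its title alone, since its file header lists hnRNP R.

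Cyp51 held the most cDNAs of the members. It had 173 and 211 CPM in NSC34 cells (79 and 21 cDNAs), 94.7 and 103 in motoneurons (34 and 33 cDNAs) and 110 with IgG (4 cDNAs, 95% Poisson interval 30.0 to 282). Insig1 had 107 and 90.2 CPM in NSC34 cells, 22.3 and 34.4 in motoneurons and 110 with IgG. On these library totals both genes were lower in both motoneuron libraries than in either NSC34 library, as were 5126 of 9567 tested genes (53.6%). After the trimmed-mean scaling (TMM) described below this held for Insig1 and not for Cyp51, beside 30.2% of tested genes. With TMM both motoneuron libraries lay above both NSC34 libraries for Fdft1, Idi1 and Lss, as for 3549 of 9567 tested genes. On library totals that higher order held for Fdft1 alone of the members, as for 1946 of 9567 tested genes. Sqle had 81.0 and 40.1 CPM in NSC34 cells, 30.6 and 40.7 in motoneurons and 55.1 with IgG, and its groups overlapped.

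Of the other members, Fdft1 had 76.6 and 70.2 CPM in NSC34 cells and 78.0 and 78.3 in motoneurons, with 27.6 for IgG from 1 cDNA. Lss had 37.2 and 60.1, then 36.2 and 59.5 CPM, with 55.1 for IgG. Fdps had 12 and 0 cDNAs in NSC34 cells, 3 in each motoneuron library and 0 with IgG, where a count of 0 allows up to 82.7 CPM, taken as 3 counts of the total. Idi1 had 2 and 1 cDNAs in NSC34 cells, 9 and 3 in motoneurons and 0 with IgG.

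**Figure D4:**
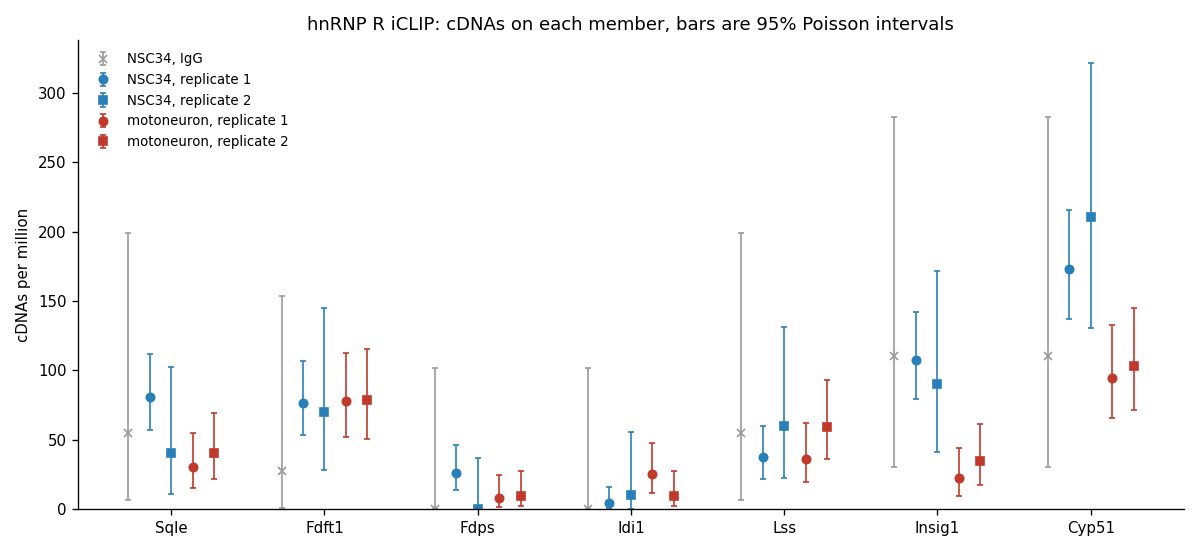
CPM (vertical axis) on each of the 7 members in the 5 unfractionated libraries, with 2-sided 95% Poisson intervals as bars, which reach 102 CPM for the IgG counts of 0. Cyp51 and Insig1 are lower in both motoneuron libraries (red) than in either NSC34 library (blue), as are 53.6% of all tested genes on this scale, and the IgG intervals (grey) cover every hnRNP R value but that of Insig1 in motoneuron replicate 1.

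Between motoneurons and NSC34 cells the call on a member depended on how the libraries were scaled. With TMM edgeR's quasi-likelihood test called Fdft1 and Idi1 higher in motoneurons and no other member. The log2 ratio was 1.00 (SE 0.40, adjusted p = 0.0403) for Fdft1 and 2.48 (SE 1.03, adjusted p = 0.0495) for Idi1. Of all tested genes 3566 of 9567 (37.3%) were called, so 2 of 7 members is near that share. Lss had a log2 ratio of 1.07 (SE 0.49, adjusted p = 0.0798) and Insig1 of -0.91 (SE 0.46, adjusted p = 0.115). Sqle, Fdps and Cyp51 had -0.03, -0.19 and 0.03 (adjusted p 0.970, 0.901 and 0.949).

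The TMM factors were 1.27 and 1.23 in NSC34 cells and 0.63 and 0.67 in motoneurons, and scaling on library totals alone moved the median log2 ratio of all tested genes from 0.08 to -0.86. On library totals Fdft1 (log2 0.05, adjusted p = 0.934) and Idi1 (log2 1.56, adjusted p = 0.219) were not called. Insig1 (log2 -1.86, adjusted p = 0.0003) and Cyp51 (log2 -0.92, adjusted p = 0.0123) were then called lower in motoneurons, where 4897 of 9567 genes (51.2%) were called by the same edgeR test. Under both scalings Insig1, Sqle, Fdps and Cyp51 lay below and Fdft1, Idi1 and Lss above the median of all tested genes. A change of scaling moves the ratios of all genes nearly alike, so keeping a side adds no support. DESeq2 called 0 of the 5 members for which it gave an adjusted p, and edgeR with no filter on low counts called 0 of 7. Leaving out either NSC34 library or motoneuron replicate 1 left 0 called, with a log2 ratio of Fdft1 between 0.83 and 0.90, and Idi1 was under the filter without motoneuron replicate 1. Leaving out motoneuron replicate 2 left Idi1 called (edgeR adjusted p = 0.0221).

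No member was called between the hnRNP R libraries and the IgG library of NSC34 cells. With edgeR's quasi-likelihood test 0 of 7 members were called and 0 had an unadjusted p under 0.05, where 51 of 9567 genes (0.533%) were called. DESeq2 called 0 members and 11 genes. Cyp51 had the smallest edgeR p of the members, with log2 1.01 (SE 0.69, adjusted p = 0.657). Most of the genes called by edgeR or by DESeq2 were lower, not higher, with hnRNP R than with IgG. The IgG library holds 13 cDNAs on the members.

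The cDNAs of Fdft1, Idi1 and Fdps lay mostly in introns, those of Lss mainly in coding exons, and those of Cyp51 and Insig1 mainly in introns and 3′ UTRs. Over both motoneuron libraries 52 of 53 Fdft1 cDNAs were intronic (98.1%, exact 95% interval 89.9 to 99.95), and in NSC34 cells 40 of 42 (95.2%, 83.8 to 99.4). All 12 motoneuron cDNAs of Idi1 and all 3 in NSC34 cells were intronic. Fdps had 5 of 6 and 10 of 12 in introns. On Lss 22 of 32 cDNAs in motoneurons and 16 of 23 in NSC34 cells lay in coding exons, and 25.0% and 30.4% in introns. These shares sum cDNAs over 2 libraries and their intervals do not include the spread between them. In the IgG library 2 of 2 Lss cDNAs lay in coding exons, and the 1 cDNA of Fdft1 was intronic.

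Cyp51 and Insig1 carried 3′ UTR cDNAs in each unfractionated hnRNP R library. On Cyp51 these were 41 of 79 and 11 of 21 in the NSC34 libraries and 10 of 34 and 15 of 33 in the motoneuron libraries. On Insig1 they were 28 of 49 and 5 of 9, then 5 of 8 and 4 of 11. The IgG library had 2 of 4 Cyp51 cDNAs and 3 of 4 Insig1 cDNAs in the 3′ UTR. On Sqle 22 of 37 and 1 of 4 were in coding exons in NSC34 cells, 3 of 11 and 7 of 13 in motoneurons and 1 of 2 with IgG.

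**Figure D5:**
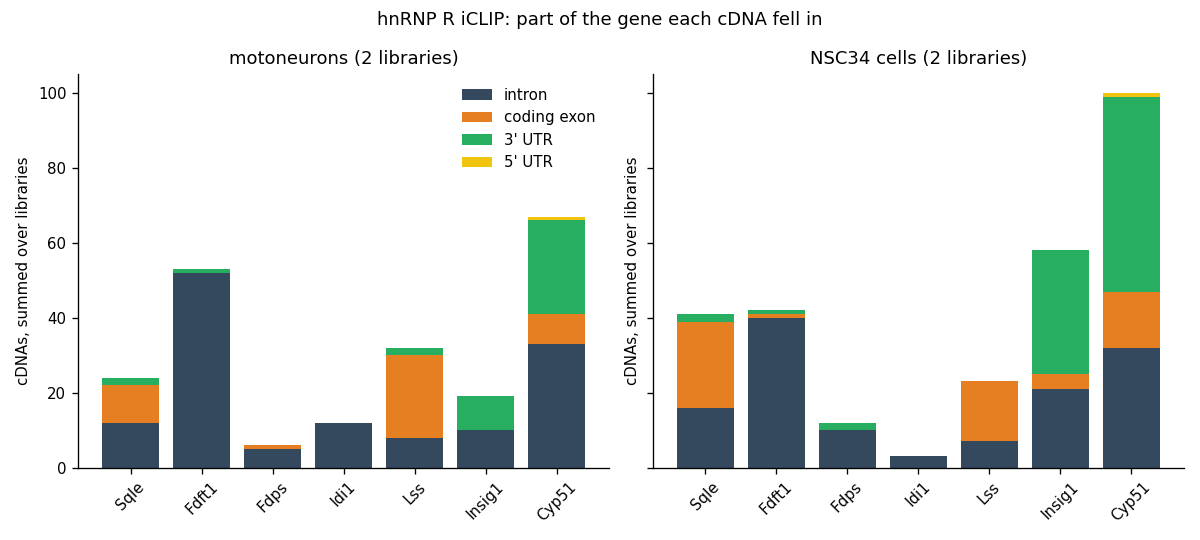
cDNAs on each of the 7 members (vertical axis, summed over 2 libraries per panel) split by the part of the gene they fell in. Fdft1 is nearly all intron (52 of 53 and 40 of 42), Lss mainly coding exon (22 of 32 and 16 of 23), and Cyp51 has the most 3′ UTR cDNAs (25 of 67 and 52 of 100).

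The intron shares of the members are set beside those of all genes with no test of the difference. Introns held 69.8% and 54.2% of their cDNAs in the motoneuron libraries, beside 88.1% and 86.5% over all genes, and 45.9% and 47.9% in the NSC34 libraries, beside 77.3% and 70.7%. In the IgG library they held 30.8% (4 of 13 cDNAs), beside 76.2% over all genes. The members are 6.40 to 31.4 kb long. The 9691 genes in that range of length had 61.4% and 57.9% in introns in motoneurons and 63.3% and 61.5% in NSC34 cells. With IgG they had 59.5%. Coding exons of these genes held 8.72% and 8.69% in motoneurons, 12.9% and 13.9% in NSC34 cells and 21.4% with IgG. Their 3′ UTRs held 15.9% and 20.2%, 19.1% and 20.0%, and 14.0% in that order. Beside these genes the members' intron share lay above in motoneuron replicate 1 and below in replicate 2. It lay below in both NSC34 libraries and in the IgG library.

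In the fractions of motoneurons the same genes could be followed at lower depth. The cytoplasmic library had 194816 cDNAs and 287 CPM on the members (95% Poisson interval 217 to 373), and the nuclear one had 91302 and 372 (258 to 520). Cyp51 had 13 cytoplasmic cDNAs, 8 of them in the 3′ UTR, and 7 nuclear ones, all intronic. Fdft1 had 20 and 16, all intronic in both. Lss had 8 in each, with 6 cytoplasmic and 2 nuclear ones in coding exons. Sqle had 8 and 2, Insig1 3 and 0, Fdps 2 and 1, and Idi1 2 and 0. Introns held 67.9% (exact 95% interval 54.0 to 79.7) of the members' cytoplasmic and 88.2% (72.5 to 96.7) of their nuclear cDNAs, each from 1 library. Over all genes introns held 87.5% in the cytoplasmic and 91.5% in the nuclear library. The 9691 genes in the members' range of length had 61.2% and 67.0%. The difference of the members from either was not tested.

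The NSC34 fractions were too shallow for single members. With antibody 1 the nuclear library held 17 member cDNAs (6 on Lss, 4 each on Sqle and Insig1, 3 on Cyp51) of 48398, and the cytoplasmic one held 1, on Sqle, of 3569. With antibody 2 the cytoplasmic library held 1 each on Lss and Cyp51 of 2796, and the nuclear one 0 of 7493, which allows up to 400.4 CPM on the same 3 counts. Over the 3 pairs of fractions 4 members had enough cDNAs for edgeR's quasi-likelihood test, and 0 were called and 0 had an unadjusted p under 0.05, where 0 of 5177 genes (0%) were called. Their log2 ratios of nuclear to cytoplasmic were 0.76 (SE 1.59) for Lss, 0.63 (SE 1.96) for Fdft1, -0.02 (SE 1.72) for Cyp51 and -0.64 (SE 1.69) for Sqle. Over all genes 27 had an unadjusted p under 0.05 with edgeR, and DESeq2 called 3.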

How the data were processed

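The RNA libraries came as 4 comparison tables on GRCm38, made with Cufflinks 2.2.1 after FastQC 0.10.1, per the submitters' processing notes. The FPKM, log2 ratio, test score, p-value and q-value of each gene are the authors' deposited values, 1 FPKM per group. Without values per library no test was refitted and RNA depth is unknown. The iCLIP files hold whole-number cDNA counts per gene and gene part on mm9 with Ensembl 59, per the file headers. The sources used here do not name the aligners or the handling of duplicates. A further 1243 per-sample columns of these deposited files were not used.

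Counts were tested with edgeR 4.0.16 (R 4.3.3; glmQLFit, TMM, at least 10 cDNAs over the libraries of a fit, Benjamini-Hochberg), with DESeq2 1.42.0 as an alternative, and scripts were tested on simulated data. The 5 unfractionated libraries shared 1 fit, which takes the spread of the single IgG library from the other groups, and fractions had a block for cells and antibody. Replicates differed by more than sampling noise (chi-square over degrees of freedom 3.08 in motoneurons and 2.28 in NSC34 cells). If they are technical, p-values measure only that spread.

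Members and gene lists were chosen with earlier results of these data known. Named were all members, Dhcr7 and Srebf2, per list the called genes or at most the 2 tested genes of smallest p, and the 5 nearest genes. Some genes under this rule are not reported here. Records were joined by symbol, and Msmo1 by a synonym. Scaling on library totals was added after seeing the data. The figures were drawn with matplotlib 3.10.9.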

Additional observations from a re-analysis of the deposited data

How the results depend on the processing

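At an unadjusted p under 0.05 in place of q, members called went from 0 to 3 (somatodendritic hnRNP R knockdown), 1 (somatodendritic 7SK) and 1 (axonal 7SK). Centring on the tested genes moved the members' median log2 ratio to -0.17 (axonal hnRNP R) and -0.31 (axonal 7SK), and rescaling without the largest locus moved it to -0.36, -0.53 and, for somatodendritic 7SK, -0.51. The share of that locus, control to knockdown, went from 46.7% to 38.5% (axonal 7SK) and from 36.8% to 43.0% (somatodendritic 7SK). The axonal to somatodendritic median was -0.41 from the 7SK tables and 0.14 after centring. No paired analysis was possible because the RNA tables hold 1 value per group.

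Between motoneurons and NSC34 cells, members called went from 2 to 0 with DESeq2 (which gave Idi1 no adjusted p), 0 with no filter, 1 with only the 4 hnRNP R libraries, 0 with the replicate block and between 0 and 1 with a library left out (Idi1 was under the filter without motoneuron replicate 1). The replicate numbers share only a number (correlation of deviations 0.04 over 1955 genes), and the block called 3211 genes in place of 3566. A lone library left in a group is assumed to vary like the others. The log2 ratio of Sqle turned to 0.11 (DESeq2), 0.020 (replicate block) and, with a library left out, ranged from -0.38 (without NSC34 replicate 2) to 0.56 (without NSC34 replicate 1), and that of Fdps to 0.30 (DESeq2) and 0.10 (replicate block). That of Cyp51 turned to -0.0025 (DESeq2), -0.92 (library totals, an alternative chosen after seeing the data), -0.19 (no filter) and -0.0023 (replicate block), and with a library left out ranged from -0.34 (without NSC34 replicate 1) to 0.00039 (without NSC34 replicate 2). Calls over all genes were 1530 with DESeq2 and 1954 without NSC34 replicate 1.

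Against IgG, leaving out NSC34 replicate 1 or 2 gave log2 ratios of -0.26 and 0.83 for Sqle, 0.31 and -0.28 for Lss and -0.094 and 0.25 for Insig1. The ratio turned to 0.10 for Lss with no filter and -0.14 for Insig1 on library totals. Calls over all genes were 11 with DESeq2, 81 on library totals and 6 without NSC34 replicate 2, in place of 51. Between fractions Fdft1 turned to -1.02 with DESeq2 and Cyp51 ranged from -0.40 (without the antibody 1 NSC34 pair) to 0.50 (without the antibody 2 pair). Calls over all genes were then 3 with DESeq2, 1 with RLE size factors or library totals, and 6 without the motoneuron pair, which left 0 members to test. The cause of these shifts was not tested.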
